A study of Homo sapiens with 7 samples.

Results

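The histone gene cluster and the major histocompatibility complex (MHC) lie next to each other on the short arm of human chromosome 6. The MYCN binding sites described here are those with a summit on chromosome 6 from 25.7 to 33.5 Mb of the genome build hg19, a position range that used no measured value. They number 512 of the 64657 summits of the deposited list, or 0.792%. Of these, 230 lie in the histone gene cluster (up to 28.5 Mb) and 282 in the MHC (beyond 28.5 Mb). A summit is a position of locally highest ChIP signal, and 1 enriched interval can hold several, so the 512 summits belong to 392 intervals.

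The study mapped MYCN on chromatin by ChIP-seq (immunoprecipitation of crosslinked chromatin, then sequencing). It used Kelly, an established neuroblastoma line of human origin with amplified MYCN and an activated, mutant ALK receptor kinase. TAE684-resistant Kelly cells, kept in 1 µM of the ALK inhibitor TAE684 for 48 h, gave 2 MYCN ChIP samples and 2 input samples. TAE684-sensitive Kelly cells, given the vehicle DMSO for 48 h, gave 2 MYCN ChIP samples and 1 input sample. All groups share 1 cell line, and input is sheared chromatin sequenced without antibody. The 2 deposited lists, 1 per state, held the same 64657 rows in the same bytes, and every row of the list for resistant cells carries the name given to the sensitive cells. Resistant and sensitive cells were therefore not compared, and all values come from the list named for sensitive cells. That list stands for both ChIP samples together, so no value has a replicate error. Intervals given below are 95% intervals that cover counting error only, and neighbouring summits are not replicates of each other.

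MYCN is a basic helix-loop-helix protein that binds DNA with its partner MAX, best at the E-box CACGTG and less well at variants such as CACGCG. Amplification of its gene is the defining lesion of a high-risk class of neuroblastoma. The replication-dependent histone genes are short, intronless and transcribed in S phase, when a dividing cell must package new DNA. They sit in a large cluster on 6p and a smaller one at 1q21, in groups kept apart by other genes. Between the groups on 6p lies the largest cluster of transfer RNA (tRNA) genes in the human genome. The tRNA genes are read by RNA polymerase III, a transcription system with which MYC proteins are known to associate. The MHC follows toward the centromere. Its class I part encodes the molecules that show peptides from inside the cell to CD8 T cells, class II those that show peptides to CD4 T cells, and class III, placed between them, encodes complement components, tumour necrosis factor and many housekeeping proteins.

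The region was divided into 12 stretches by textbook positions on hg19. From the telomeric side the histone gene cluster holds a stretch of SLC17 transporter genes, histone group A, a stretch of butyrophilin genes, histone group B, a stretch of zinc-finger and tRNA genes, histone group C, and a stretch of zinc-finger and SCAN-domain genes. The MHC holds extended class I with many olfactory receptor genes, classical class I, class III, classical class II and extended class II. Gene names and gene order were read from a RefSeq table of another build (GRCh38.p14) between landmark genes, so summits were not assigned to genes. In that order the 12 stretches hold 261 protein-coding genes, of which group A holds 32 histone genes, group B 5, group C 16 and the SLC17 stretch 2. They hold 144 tRNA genes, 113 of them in just 3 stretches: the butyrophilin stretch with 34, the stretch between groups B and C with 41, and extended class I with 38. The chosen landmark genes fix where each stretch ends in this order, in which NOTCH4 closes class III and HLA-DPB1 closes classical class II. The order is therefore no check of the hg19 borders.

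Promoters of the histone genes are printed first because their letters differ from those of the other genes of the region. RefSeq gives 300-base promoters, from 250 bases before to 50 after the gene start, for 50 of the 55 histone genes. Each line is 1 promoter of build GRCh38.p14, chromosome 6, minus strand, 5′ to 3′, the first with a TATAAA match in its group by gene order. Capitals mark TATAAA and CCAAT on either strand (TTTATA and ATTGG where the match is on the other strand). H1-1 encodes a linker histone, which seals DNA on the nucleosome. H2BC11 and H2BC13 each encode the core histone H2B.
H1-1 (group A): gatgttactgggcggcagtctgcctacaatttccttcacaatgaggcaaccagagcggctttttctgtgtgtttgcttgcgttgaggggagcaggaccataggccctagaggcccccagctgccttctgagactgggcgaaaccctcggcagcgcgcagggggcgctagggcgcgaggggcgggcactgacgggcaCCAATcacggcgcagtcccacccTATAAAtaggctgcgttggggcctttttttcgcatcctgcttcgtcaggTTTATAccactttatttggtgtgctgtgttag
H2BC11 (group B): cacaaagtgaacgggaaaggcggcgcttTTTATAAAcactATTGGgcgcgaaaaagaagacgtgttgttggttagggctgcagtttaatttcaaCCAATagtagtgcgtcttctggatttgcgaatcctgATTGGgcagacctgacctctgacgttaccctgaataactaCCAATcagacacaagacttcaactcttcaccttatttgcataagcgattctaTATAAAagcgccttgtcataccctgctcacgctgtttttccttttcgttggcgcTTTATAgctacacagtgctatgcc
H2BC13 (group C): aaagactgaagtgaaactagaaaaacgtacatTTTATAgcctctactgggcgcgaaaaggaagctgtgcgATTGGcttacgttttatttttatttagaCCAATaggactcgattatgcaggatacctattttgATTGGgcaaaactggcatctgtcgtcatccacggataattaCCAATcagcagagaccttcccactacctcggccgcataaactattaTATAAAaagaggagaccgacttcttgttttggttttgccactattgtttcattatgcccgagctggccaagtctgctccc
All 3 carry TATAAA close before the gene start, and the H2B genes carry 4 CCAAT matches each.

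In the MHC, 3 promoters are printed for the canonical E-box, each the first in its stretch by gene order among those that hold it. Capitals mark CACGTG, and build and strand are as above. GNL1, in classical class I, encodes a GTP-binding protein. NEU1, in class III, encodes the lysosomal sialidase. WDR46, in extended class II, encodes a nucleolar protein of ribosome assembly.
GNL1: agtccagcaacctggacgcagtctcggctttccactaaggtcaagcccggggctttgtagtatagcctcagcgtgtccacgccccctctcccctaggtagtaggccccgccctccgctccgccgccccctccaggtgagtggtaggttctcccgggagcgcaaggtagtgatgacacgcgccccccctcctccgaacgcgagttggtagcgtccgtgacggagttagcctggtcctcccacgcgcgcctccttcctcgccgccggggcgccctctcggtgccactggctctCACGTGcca
NEU1: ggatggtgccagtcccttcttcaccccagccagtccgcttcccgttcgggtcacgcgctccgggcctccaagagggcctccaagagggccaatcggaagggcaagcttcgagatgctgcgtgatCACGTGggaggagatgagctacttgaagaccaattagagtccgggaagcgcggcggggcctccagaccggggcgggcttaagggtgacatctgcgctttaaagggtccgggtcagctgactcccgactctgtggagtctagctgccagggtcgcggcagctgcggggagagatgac
WDR46: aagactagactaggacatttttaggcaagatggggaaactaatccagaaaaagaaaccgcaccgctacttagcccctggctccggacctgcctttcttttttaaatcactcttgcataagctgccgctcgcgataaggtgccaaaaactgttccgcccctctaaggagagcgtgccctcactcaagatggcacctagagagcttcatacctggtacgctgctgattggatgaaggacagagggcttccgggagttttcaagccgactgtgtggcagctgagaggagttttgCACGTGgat
The match lies after the gene start in GNL1 and WDR46 and before it in NEU1.

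Over all 54 matched histone promoters, searched on both strands, CACGTG was found in 0, which allows a share of up to 6.60% (exact binomial). It was found in 14 of 252 promoters (5.56%) of the other protein-coding genes of the region and in 8.34% of 22199 protein-coding promoters of the genome. CACGCG was found in 1 histone promoter, that of the H3 gene H3C6, in 9.52% of the other promoters of the region and in 14.3% genome-wide. TATAAA, the letters of a TATA box, was counted on either strand at any position, so a match need not be a TATA box. It stood in 36 histone promoters (66.7%, 95% exact interval 52.5 to 78.9%), in 13.5% of the other promoters of the region and in 9.47% genome-wide. CCAAT stood in 47 histone promoters (87.0%), in 39.3% of the others and in 34.7% genome-wide. The histone promoters thus carried the TATA and CCAAT letters more often, with exact intervals that do not overlap those of the other 2 sets, and no canonical E-box within these 300 bases. The median share of G and C letters was 42.3% in histone promoters, 58.0% in the others of the region and 62.3% genome-wide. Whether the motif shares follow from this base composition was not tested. Among the 5 histone families CCAAT was in every matched promoter of H1 (6), H2A (11), H2B (17) and H3 (10), and in 3 of 10 of H4. A motif match describes letters only. Peaks could not be placed on these promoters, since the list is on hg19, and bases outside the 300-base window were not searched.

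**Figure D1:**
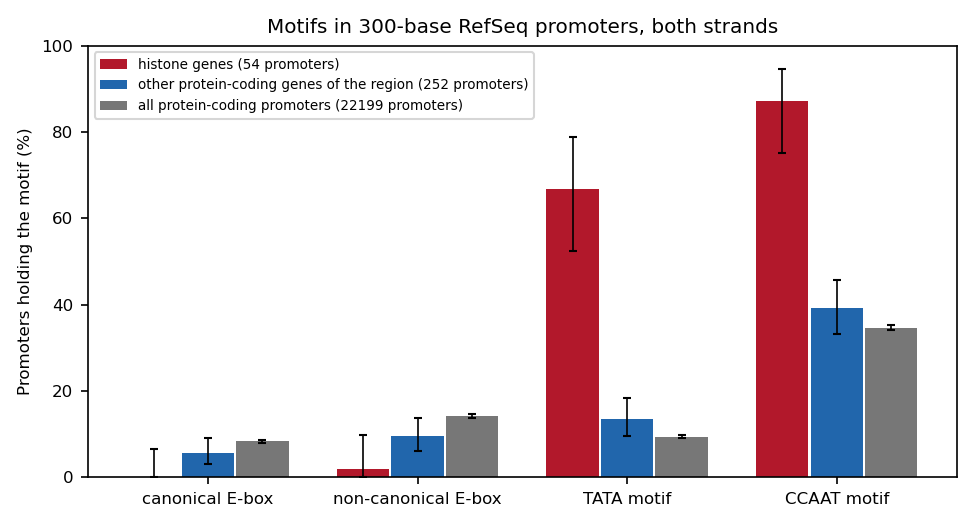
Share of 300-base RefSeq promoters (y axis, %) that hold each of 4 motifs on either strand (x axis), for histone genes (red), other protein-coding genes of the region (blue) and all protein-coding genes (grey). Bars are shares and lines 95% exact binomial intervals. The red bars stand at 66.7% for the TATA motif and 87.0% for CCAAT, and at 0 for the canonical E-box.

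MYCN summits were denser in the region as a whole than in the rest of the list, though not in all of its stretches: the SLC17 stretch and classical class II, given below, were not denser beyond counting error. The whole region held 65.6 summits per Mb, against 21.2 per Mb over the rest of the list (chromosomes 1 to 22 and X), a ratio of 3.10 (95% interval 2.83 to 3.38). Of its intervals, 61.0% had a neighbouring interval within 2 kb, against 35.4% in the rest of the list. The histone gene cluster held 82.1 summits per Mb (ratio 3.88, 3.39 to 4.41) and the MHC 56.4 per Mb (ratio 2.66, 2.36 to 2.99). The histone gene cluster was the denser by 1.46 times (1.22 to 1.74). Among 1071 windows of its length tiled over the genome, 12 held more summits than its 230, and the median window held 44. Of 595 windows of the length of the MHC, 27 held more than its 282.

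**Figure D2:**
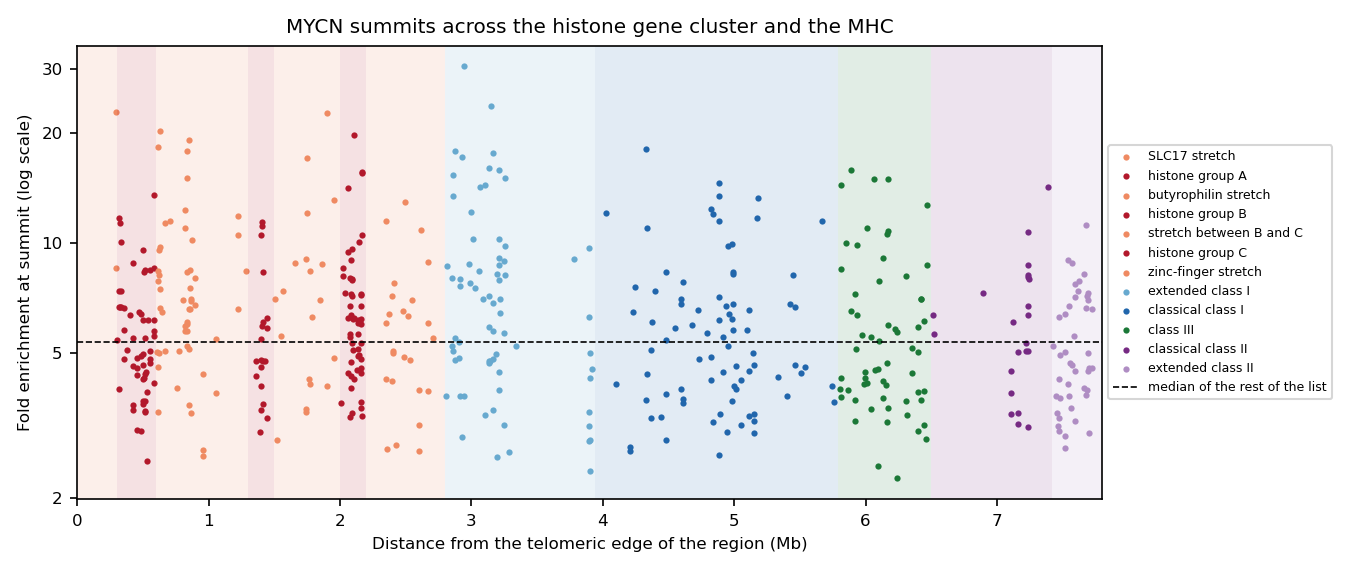
Every MYCN summit of the region by its distance in Mb from the telomeric edge (x axis) and its fold enrichment on a log scale (y axis). Colours mark the 12 stretches, and the dashed line is the median fold of the rest of the list, 5.34. Summits crowd in the 3 dark red histone groups, and a wide part of classical class II is nearly bare.

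Groups A and C were the densest of the 12 stretches. Group A held 57 summits in 44 intervals, or 190 per Mb. Group B held 20 summits in 16 intervals, or 100 per Mb. Group C held 53 summits in 44 intervals, or 265 per Mb. Set against the rest of the list, these are ratios of 8.96 (6.79 to 11.6) for A, 4.72 (2.88 to 7.29) for B and 12.5 (9.37 to 16.4) for C. Only 4 of 15118 tiled windows of its length held more summits than group C, and 12 of 10075 held more than group A. Group B was less apart: 382 of 15118 windows held more summits than its 20, 59 held as many, and the interval of its ratio overlaps that of the neighbouring butyrophilin stretch (3.57, 2.68 to 4.67). Group A was denser than group B by 1.90 times (1.12 to 3.34), while C over A gave 1.39 with an interval that includes 1 (0.941 to 2.06). These densities apply to the chosen borders, and the borders of group B take in much bare sequence. Its summits lay between 27059597 and 27146333, in a stretch set from 27 to 27.2 Mb. Per protein-coding gene, by gene order, the ranking differed. Group B held 20 summits for 5 genes, more per gene than A (1.73) or C (3.31). The summits were counted in hg19 windows and the genes between landmark genes of the other build, which need not span the same sequence. By this rough measure group B was not the sparsest of the 3.

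Together the 3 groups held 185.7 summits per Mb, against 47.6 per Mb in the 4 other stretches of the cluster, a ratio of 3.90 (2.98 to 5.11). This ratio depended on the borders: moved 100 kb toward the centromere they gave 2.40 (1.84 to 3.13), and moved 100 kb toward the telomere they gave 1.31 (0.977 to 1.74). The butyrophilin stretch, between A and B, was the densest of the other 4 with 53 summits or 75.7 per Mb. The zinc-finger stretch had 41.7 per Mb and the stretch between B and C 40.0 per Mb. The SLC17 stretch, which holds the phosphate and urate transporter genes, had only 2 summits, both in its last 10 kb beside group A, with a density ratio of 0.315 (0.0381 to 1.14).

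**Figure D3:**
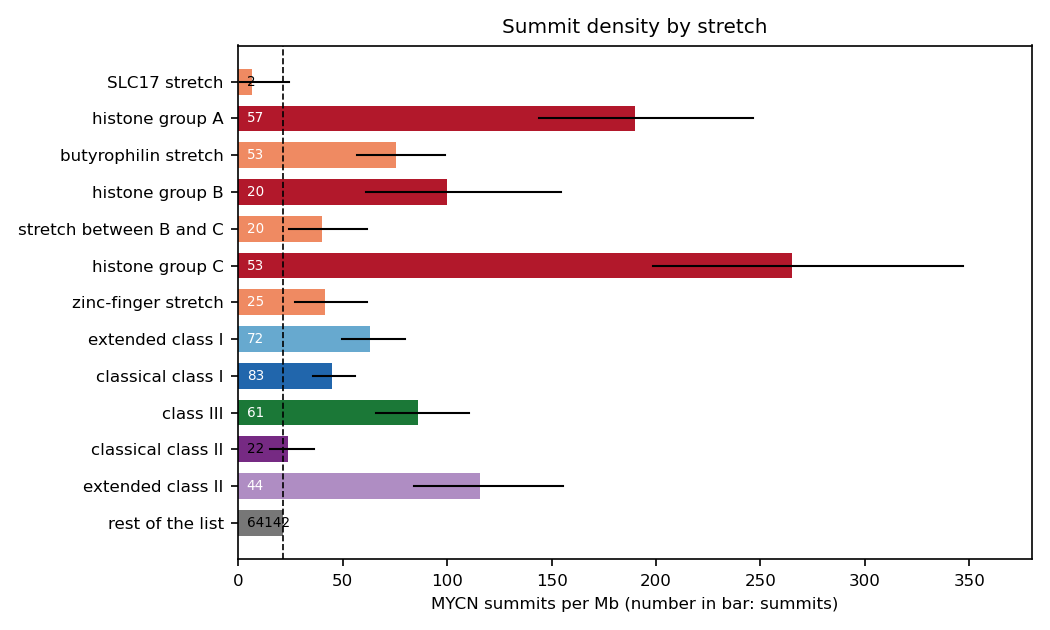
MYCN summits per Mb (x axis) in the 12 stretches in chromosome order, with the rest of the list at the bottom. The number in a bar is its summit count, lines are the 95% intervals of the density ratio placed on the axis of the bars (counting error only), and the dashed line is the rest of the list at 21.2 per Mb. Groups A (190) and C (265) reach furthest, and the SLC17 stretch is the only bar below the dashed line.

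The other large histone gene group, at 1q21, served as a like region elsewhere. It held 19 summits in 0.150 Mb, or 126.7 per Mb, a ratio to the rest of the list of 5.98 (3.60 to 9.33). Group C was denser than it by 2.09 times (1.22 to 3.74). Group A over the 1q21 group gave 1.5, with an interval that includes 1 (0.879 to 2.67). Of the intervals there, 81.3% had a neighbour within 2 kb, the same share as in group B.

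Within the histone groups the intervals came in short strings. In group C, 42 of 44 intervals (95.5%, 84.5 to 99.4%) had a neighbour within 2 kb, with a median distance of 222.5 bp. The shares were 86.4% in group A and 81.3% in group B, against 35.4% in the rest of the list, where the median distance was 5916 bp. Joined across gaps of up to 2 kb, the 44 intervals of group C formed 13 strings, those of group A 19 and those of group B 7. The string with the most intervals, in group C at chr6:27857221-27863531, spanned 6311 bp with 9 intervals and 11 summits. Its summit folds ran between 3.54 and 7.24, against a highest of 19.7 in the whole group. The string of most intervals in group A, chr6:26215115-26218250, held 6, and that of group B, chr6:27099252-27101874, held 5. The densest 50-kb bin of the region also lay in group C, from 27.75 to 27.80 Mb, with 23 summits in 19 intervals. Only 11 of the 22563 occupied 50-kb bins of the list held as many or more, this bin among them.

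**Figure D4:**
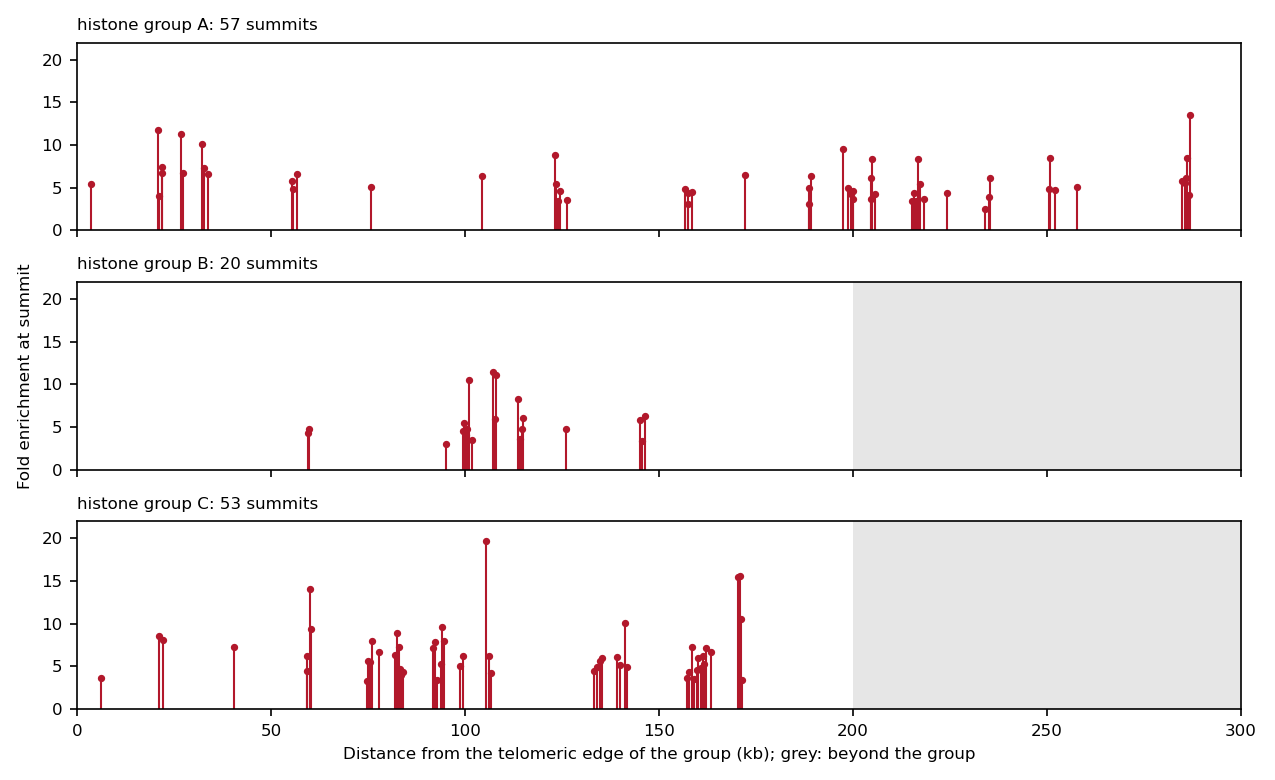
Summits of histone groups A, B and C, by distance in kb from the telomeric edge of each group (x axis) and fold enrichment (y axis). Grey marks positions beyond a group. Summits stand in short strings with bare stretches between them, and most strings stay under a fold of 10.

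Summits in the histone groups stood close together but were of ordinary height. Fold enrichment divides the scaled ChIP pileup at a summit by the local background, each with 1 added. Whole ChIP fragments and background (in input fragments) were recovered from the fold and the p-value. A fold of at least 10 was reached by 12.0% of all 64657 summits. In the whole region 70 of 512 summits reached it (13.7%, 10.8 to 17.0%), a share near that background. It was reached by 4 of 57 summits in group A (7.02%), 3 of 20 in group B (15.0%) and 6 of 53 in group C (11.3%). The median fold was 5.09 in A, 4.76 in B and 6.13 in C, against 5.34 in the rest of the list. Group A ranged between 2.53 and 13.5, group B between 3.02 and 11.4, and group C between 3.34 and 19.7. The intervals of all 3 medians (4.63 to 6.15, 4.32 to 6.07 and 5.11 to 7.15 in that order) include the value of the rest. Median ChIP fragments were 54 in A, 47.5 in B and 59 in C, against 63 in the rest.

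Local background differed more between stretches than the ChIP signal did: over the 11 stretches with at least 20 summits, its median lay between 2.94 and 8.84 input fragments, while the median of ChIP fragments lay between 44 and 74. In the whole region the median background was 6.16 input fragments (6.0 to 7.0), against 7.56 (7.42 to 7.56) in the rest of the list, and median ChIP fragments were 60 (55 to 64), against 63. The median fold of the region, 5.65 (5.30 to 6.03), stood against 5.34 (5.32 to 5.38). In the histone gene cluster the background was 5.32 at the median and the fold 6.02 (5.49 to 6.31), which is 1.13 times that of the rest of the list (1.03 to 1.18). This ratio had an interval that includes 1 when set against the rest of chromosome 6 (1.07, 0.975 to 1.12) and over summits with −log10 q of at least 10 (1.03, 0.976 to 1.11). The MHC had 7.42 and 5.32 (4.98 to 5.84), both close to the rest of the list. Summits at the genome-wide background, the lowest value MACS2 assigns (1.61 input fragments), were 2.15% of the region and 7.05% of the rest.

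The 3 stretches with the most tRNA genes, called tRNA-rich here, combined a low background with a high fold. They were picked by number of tRNA genes, not by number per Mb. By gene order, extended class I holds 38, and histone groups A and B, counted among the 9 other stretches, hold 13 and 10. Their hg19 windows are 1.14, 0.30 and 0.20 Mb long. The counts run between landmark genes of the other build, which need not match these windows, so tRNA genes per Mb were not computed. Groups A and B had median folds of 5.09 and 4.76. The median background was 5.0 in the butyrophilin stretch, 2.94 between groups B and C and 4.0 in extended class I, beside 4.50 in histone group B and 5.0 in group C. Their median folds, 6.77, 6.99 and 6.62, were the 3 highest of the region apart from the 2 summits of the SLC17 stretch. Pooled, a grouping chosen after the values were seen, they held 145 summits with a median fold of 6.83 (5.92 to 7.54), against 5.30 (4.98 to 5.69) in the 9 other stretches. Median ChIP fragments were 54 (46 to 64) there and 61 (56 to 66) in the other 9, and median background 4.0 and 7.0. A fold of at least 10 was reached by 31 of their summits (21.4%, 15.0 to 29.0%). It was reached by 39 of 367 (10.6%, 7.67 to 14.2%) in the other 9, and by 12.0% of all 64657 summits of the list. Summits of the tRNA-rich stretches thus had the higher fold with no higher ChIP signal and a lower background. Whether single summits lie on tRNA genes was not tested.

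**Figure D5:**
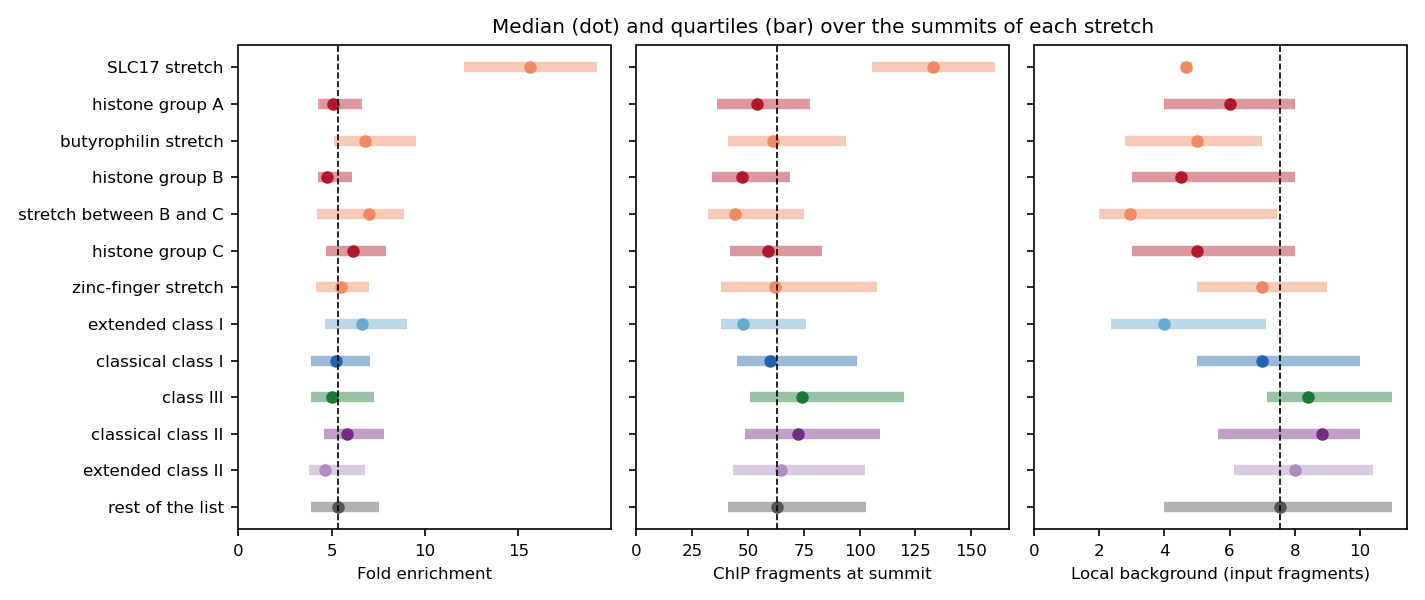
Median (dot) and quartiles (bar) of fold enrichment (left), ChIP fragments at the summit (middle) and local background in input fragments (right) for each stretch and for the rest of the list, whose medians are the dashed lines. The butyrophilin stretch, the stretch between B and C and extended class I lie right of the line for fold and left of it for background. The SLC17 stretch has only 2 summits.

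The strongest single sites of the histone gene cluster lay mostly outside the histone groups. The highest, chr6:25992635-25993108 in the SLC17 stretch, had a fold of 22.8 from 188 ChIP fragments over a background of 4.34, the most fragments of any site in the cluster. It lies less than 10 kb from the border of group A. The site at chr6:27599042-27599341, between groups B and C, had a fold of 22.7 from 113 fragments over 2.24. In the butyrophilin stretch, chr6:26331592-26331846 had 20.2 from 93 fragments over 2.0, and chr6:26553581-26553873 had 19.1 from 88 over 2.0. Of the 5 highest, only chr6:27805162-27805455 lay in a histone group, in C, with 19.7 from 113 fragments over 2.73. All 5 had a background below the median of the cluster, 5.32. Sites named next were chosen after their values were seen. The next in group C were 2 neighbouring intervals, chr6:27870594-27871143 with 15.6 and chr6:27870219-27870420 with 15.5. In group A the highest fold was 13.5 at chr6:26286493-26286911, and in group B 11.4 at chr6:27106889-27107429.

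The widest interval of the cluster, chr6:26537430-26538943 in the butyrophilin stretch, was 1514 bp long with 4 summits. Its folds were 8.32, 17.8, 5.99 and 5.75, from 167, 165, 64 and 97 ChIP fragments. The first 2 summits had nearly equal fragments, and their folds differ with the background, 12 and 5.0 input fragments. The longest stretches without a summit were 339.9 kb up to chr6:25992310, which begins before the region and covers almost all of the SLC17 stretch, and 177.1 kb from the end of group C (27871321 to 28048449). In the whole list 2.17% and 5.27% of gaps were as long, and the median gap was 6.85 kb.

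Class I of the MHC held 155 summits in 114 intervals, 51.8 per Mb, a ratio to the rest of 2.45 (2.08 to 2.86). Extended class I was denser than classical class I, with 63.2 and 44.9 per Mb, a ratio of 1.41 (1.01 to 1.95). It also held the strongest site of the region, chr6:28641536-28641871, with a fold of 30.5 from 151 ChIP fragments over a background of 2.21, which ranks 67 in the list. The next was chr6:28849067-28849319, with 23.8 from 95 fragments over the genome-wide background of 1.61. Further sites of extended class I, chr6:28574245-28575097 and chr6:28863617-28864283, had 17.9 and 17.6. In classical class I the highest fold was 18.1 at chr6:30028847-30029392, from 169 fragments over 5.04. The most ChIP fragments in class I, 236, were also in the classical part at chr6:30875469-30876219, where a background of 12 gave a fold of 11.7. The next by fragments, chr6:30538720-30539739, had 204 fragments and a fold of 12.

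Density within class I was uneven. Between 29040068 and 29478167, 438.1 kb held no summit, the longest such stretch of the region, and 1.52% of the gaps of the list were as long. Textbook maps place the olfactory receptor genes of extended class I there, genes used in the nasal epithelium. The 2 densest 50-kb bins held 11 summits each. That from 28.90 to 28.95 Mb, in extended class I, had a median of 38 ChIP fragments over a background of 2.25 and a median fold of 7.91. That from 30.65 to 30.70 Mb, in classical class I, had 108 fragments over 10.0 and a median fold of 6.39. The bin with fewer fragments thus had the higher median fold. The widest interval of class I, chr6:29595348-29596782, was 1435 bp long with 5 summits, whose folds lay between 2.86 and 9.70.

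Class III was the densest of the 3 classes, with 61 summits in 49 intervals or 85.9 per Mb, a ratio to the rest of 4.05 (3.10 to 5.21). It was denser than class I and class II together (51.5 per Mb) by 1.67 times (1.24 to 2.22). Over summits with a fold of at least 5 the ratio was 1.51, with an interval that includes 1 (0.985 to 2.25). Class III is packed with genes too, 59 protein-coding genes by gene order, while the longer classical class I stretch holds 50. Per protein-coding gene it held 1.03 summits, the lowest of the 5 MHC stretches. The others held 1.10 in classical class II, 1.66 in classical class I, 2.20 in extended class II and 3.43 in extended class I. Here too, genes were counted between landmark genes of the other build and summits in hg19 windows. Class III had no long bare stretch: the longest run of bases without one was 65.8 kb, a length that 16.1% of the gaps of the list reach. Of its intervals, 65.3% (50.4 to 78.3%) had a neighbour within 2 kb, against 42.1% in class I and 47.7% in class II. Median ChIP fragments were 74, with an interval (63 to 98) that begins at the 63 of the rest of the list, over a background of 8.40 (8.00 to 10.0). The median fold was 5.03 (4.17 to 5.89).

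The 5 strongest sites of class III had between 178 and 255 ChIP fragments, those of the histone gene cluster between 88 and 188. The highest fold, 15.8, was at chr6:31587819-31589101, from 223 fragments over 8.12. Next came chr6:31763153-31763979 with 15.0 from 255 fragments over 10.0, the most fragments of any summit of the region. The list reaches 280. A fold of 14.9 stood at chr6:31869250-31870308 from 178 fragments, and 14.4 at chr6:31509272-31510332 from 200. The fifth, chr6:32163301-32164634, had 12.7 from 226 fragments and was the widest interval of the class at 1334 bp. The densest 50-kb bin, from 31.85 to 31.90 Mb, held 8 summits.

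Class II split into a sparse and a dense part. Classical class II, the home of HLA-DR, HLA-DQ and HLA-DP, held 22 summits in 13 intervals, or 23.9 per Mb, a ratio to the rest of 1.13 with an interval that includes 1 (0.707 to 1.71). Extended class II held 44 summits in 31 intervals, or 115.8 per Mb, a ratio to the rest of 5.46 (3.97 to 7.34). The extended part was the denser by 4.84 times (2.84 to 8.48). Class III over extended class II gave 0.742, with an interval that includes 1 (0.495 to 1.12). Of tiled windows of the same length, 81 of 7949 held more summits than extended class II, and 1028 of 3277 held more than classical class II.

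The bare part of classical class II ran through the HLA-DR and HLA-DQ genes by textbook position. How well reads align in this or other bare stretches was not tested, so a missing summit does not show missing MYCN. Between 32223075 and 32590409, 367.3 kb held no summit, and a further 215.6 kb followed up to 32806033. The single summit between these gaps, in chr6:32590325-32590501, had a fold of 7.27 from 28 ChIP fragments over the genome-wide background of 1.61. Gaps as long made up 1.94% and 4.04% of the list. Of the 22 summits of classical class II, 9 lay between 32935883 and 32940778, in 4 neighbouring intervals. The first of these, chr6:32935883-32937763, was the widest interval of class II at 1881 bp. Its 4 summits had folds of 8.66, 10.7, 8.17 and 6.71 from 147, 179, 111 and 103 fragments. The highest fold of class II stood alone at chr6:33091584-33091878, with 14.2 from 65 fragments over 2.0.

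Extended class II had many summits of ordinary height. Its median fold was 4.66 (4.10 to 6.26). Over all 64657 summits 12.0% reached a fold of 10, a share at the upper end of the interval here: 1 of 44 summits (2.27%, 0.0575 to 12.0%) did. That summit, in chr6:33377895-33379126, had a fold of 11.2 from 148 ChIP fragments. The most fragments, 236, were in chr6:33239109-33240268, where a background of 16.0 gave a fold of 8.96. Next in fold was chr6:33266891-33267417 with 8.81 from 122 fragments. The densest 50-kb bin, from 33.35 to 33.40 Mb, held 13 summits with folds between 3.01 and 11.2. Intervals with at least 2 summits were 32.3% of extended class II, against 23.6% in the rest of the list, which lies within the exact interval of the first share (16.7 to 51.4%).

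Beyond GNL1, NEU1 and WDR46, the MHC genes with CACGTG in a promoter were ABCF1 and TUBB in classical class I, EHMT2, C2 and ATF6B in class III, and CUTA in extended class II. ABCF1 encodes a translation factor of the ABC family, TUBB a beta-tubulin, EHMT2 a histone H3 methyltransferase, C2 a complement component and ATF6B a factor of the unfolded protein response. In the histone gene cluster the promoters of SLC17A2, LOC105375107 and ZSCAN12 held it. Classical class II had 0 of 25 promoters with CACGTG, which allows up to 13.7%, and extended class I 0 of 22, which allows up to 15.4%. Shares in the other MHC stretches were 4.84% in classical class I, 6.49% in class III and 8.33% in extended class II, against 8.34% of all protein-coding promoters. The order of these shares is over few promoters, and the exact intervals of all 5 stretches overlap.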

How the data were processed

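MYCN ChIP-seq of Kelly cells was used as 2 peak lists, 1 per state, for 4 ChIP samples of 7 samples in all. Per the submitters' processing notes, MACS2 2.1.1, STAR 2.5.1b, deepTools 2.2.4, Picard and SAMtools 1.3.1 were used with the build hg19. The way 2 samples became 1 list is not given in the sources used. As deposited, each row is 1 summit with a fold enrichment (a ratio of ChIP to local background), a −log10 p-value and −log10 q-value, and an integer score. These are the authors' values and were used to describe, rank or filter summits within the list. Per-sample depth is not in these files.

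Whole ChIP fragments and the local background were solved from fold and p by the relations of MACS2 with 1 scale of 0.641. A whole number matched −log10 p within 0.0005 at 64657 of 64657 summits, with 2 numbers possible at 24. On simulated data the procedure returned 16373 of 16373 fragment numbers. Densities were set against chromosomes 1 to 22 and X outside the region, with exact conditional binomial intervals, shares with Clopper-Pearson intervals and medians with order-statistic intervals, all at 95%. Summits are not replicates, so no p-value was computed. An interval within 2 kb of another counted as having a neighbour, by the distance between their edges. Fragments are not independent molecules where duplicates remain.

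Sites named are, in the histone gene cluster and each MHC class, the 5 highest folds, the 2 with most ChIP fragments, the widest interval, the longest gaps and the densest 50-kb bin. The other sites, the strings and the pooling of tRNA-rich stretches were chosen after their values were seen. The members, stretches and lists were chosen with earlier results of these data known. The alternatives were thresholds on q and fold, intervals in place of summits, borders moved by 100 kb, and chromosome 6 or occupied bins as the rest. Promoters came from RefSeq (GRCh38.p14, matched by symbol), whose coordinates were not joined with hg19. Python 3.11.15, numpy 2.4.6, pandas 2.3.3, scipy 1.17.1 and matplotlib 3.10.9 were used.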

Additional observations from a re-analysis of the deposited data

How the results depend on the processing

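Of 132 alternative values over 23 results, 123 stayed inside the 95% interval of the reported value and 9 left it. No ratio whose interval left out 1 turned to the other side of 1. Medians of the MHC over the rest of the list, all near 1, did cross it: the fold ratio of 0.996 became 1.005 with −log10 q of at least 10 and 1.02 with intervals in place of summits, and the ratio of ChIP fragments, 1.02, became 0.955 with −log10 q of at least 10. The density ratio of the histone gene cluster to the rest of the list, 3.88, became 4.47 over summits with a fold of at least 5 and 4.89 against the rest of chromosome 6. Against the rest of chromosome 6 the ratio became 3.36 for the MHC and 3.08 for class I, and the median background of the MHC over that of the rest crossed 1, with 1.06 in place of 0.982. The density ratio of the histone groups over the other stretches, 3.90, became 2.40 with borders 100 kb toward the centromere, 1.31 with borders 100 kb toward the telomere, and 2.53 with each group widened by 100 kb on each side, the last chosen after seeing the data. Moved borders put histone-group summits into neighbouring stretches, and widened groups take in neighbouring sequence, both by construction. The ratio of class III over class I and II, 1.67, became 1.51 with an interval that includes 1 (0.985 to 2.25) over summits with a fold of at least 5. The median fold of the histone gene cluster over the rest, 1.13, had an interval that includes 1 against the rest of chromosome 6 (1.07) and with −log10 q of at least 10 (1.03). Its median of ChIP fragments, 0.873, did so against the rest of chromosome 6 (0.932) and with intervals in place of summits (0.968). The share of summits at a fold of at least 10 in the tRNA-rich stretches was 21.4%, against 12.0% of all summits of the list. It became 30.1% among summits with −log10 q of at least 10, where all summits of the list gave 18.6%. With intervals in place of summits it was 26.4%, against 15.1% over the list. Borders moved 100 kb lowered it to 18.24% (12.38 to 25.42%) toward the centromere and 18.82% (13.25 to 25.52%) toward the telomere. This share and its alternatives were also chosen after seeing the data. The planned promoter shares of summits were not run, since they need an hg19 annotation. No paired analysis was possible because the ChIP samples of a state share 1 list and the 2 lists are identical. Leaving out a replicate was not possible for the same reason. The 2 summits of the SLC17 stretch and the 20 of histone group B leave wide intervals.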
